A study of Mus musculus with 63 samples.

Results

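Macrophages of wild-type B6 females aged 2 to 3 months carried either an interferon-gamma (IFN-γ) label or an untreated label in 6 of the 63 libraries of the series. The members were taken by the names of the count columns, which gave 3 libraries labelled IFN (numbers 1, 2 and 5) and 3 labelled UT (numbers 1, 4 and 5). The 16 groups of the series cross sex, age and treatment with an Lrrk2 gene that is either unaltered or carries the R1441C change (knock-in), and its design text asks how the knock-in change alters macrophage functions. All 6 libraries share the B6 background, the unaltered Lrrk2 gene, the female sex and the young age. Mice were injected with 3% thioglycollate, an irritant that recruits macrophages, and a pain reliever, and their peritoneal cells were collected 72 h later. The cells adhered to plastic, loose cells were washed off, and the wells received 100 U of IFN-γ (IFN libraries) or water as vehicle (UT libraries) for 18 h. Nothing in the protocol sorts the cells, so the libraries are bulk samples of whatever adhered. The labels do not say whether each library is a separate animal. The p-values measure the spread between libraries within the 16 groups, pooled over all 63 libraries, which may be partly technical.

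IFN-γ is made mainly by T cells and NK cells and binds a receptor of the chains Ifngr1 and Ifngr2 on macrophages. The receptor's kinases Jak1 and Jak2 start a signal that reaches promoters at a short palindrome called the gamma-activated site, and the early target Irf1 then acts through the interferon-stimulated response element. Known targets in macrophages include the guanylate-binding proteins (GBPs) and immunity-related GTPases (IRGs), which attack vacuoles that hold microbes, and Ciita, the master activator of MHC class II genes. The peritoneal cavity also holds B cells, T cells, mast cells and resident large macrophages that depend on the factor Gata6, so transcripts of these cells were followed beside those of the elicited macrophages.

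Promoters of 4 genes that rose are shown because each holds 1 or both motifs of the pathway. They run from 250 bases before to 50 bases after the RefSeq gene start, 5′ to 3′ on the gene's strand, in GRCm38.p6. That build is earlier than the GRCm39 of the counts, and these positions were not used to read the counts. Capitals mark matches to the gamma-activated site (TTCNNNGAA) or the response element (GAAA, any 2 bases, GAAA) on either strand. Irf1 lies at chr11:53769764-53770063 on the plus strand and Gbp5 at chr3:142496684-142496983 on the plus strand. Tgtp2, an IRG, lies at chr11:49064163-49064462 on the minus strand and Gbp2 at chr3:142620413-142620712 on the plus strand.
Irf1: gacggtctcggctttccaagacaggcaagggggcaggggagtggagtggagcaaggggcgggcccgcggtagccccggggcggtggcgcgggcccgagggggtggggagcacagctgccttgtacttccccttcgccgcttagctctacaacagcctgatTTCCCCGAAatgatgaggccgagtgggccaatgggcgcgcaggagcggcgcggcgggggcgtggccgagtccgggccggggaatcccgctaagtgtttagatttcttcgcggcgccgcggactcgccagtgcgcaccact
Gbp5: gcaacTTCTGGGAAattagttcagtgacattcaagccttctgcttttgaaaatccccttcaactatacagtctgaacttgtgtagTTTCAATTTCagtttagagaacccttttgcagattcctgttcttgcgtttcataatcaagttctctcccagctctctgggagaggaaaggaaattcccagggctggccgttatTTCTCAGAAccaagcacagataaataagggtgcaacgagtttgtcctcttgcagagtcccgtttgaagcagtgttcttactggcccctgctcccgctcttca
Tgtp2: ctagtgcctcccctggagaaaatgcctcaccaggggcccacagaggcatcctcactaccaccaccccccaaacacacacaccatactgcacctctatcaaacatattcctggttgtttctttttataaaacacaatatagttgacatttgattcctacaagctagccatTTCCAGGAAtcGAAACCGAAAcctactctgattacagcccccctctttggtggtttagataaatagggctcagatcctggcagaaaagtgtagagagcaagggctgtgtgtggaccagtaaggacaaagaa
Gbp2: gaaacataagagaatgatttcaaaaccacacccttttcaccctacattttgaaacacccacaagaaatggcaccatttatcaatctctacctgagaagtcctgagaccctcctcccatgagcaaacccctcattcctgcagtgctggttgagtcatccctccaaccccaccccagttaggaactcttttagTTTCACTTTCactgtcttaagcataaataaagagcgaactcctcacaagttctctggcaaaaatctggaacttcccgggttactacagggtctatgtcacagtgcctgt
The Irf1 promoter held 1 gamma-activated site and no response element, and the Gbp5 promoter held 2 and 1. The Tgtp2 promoter held both motifs next to each other, and the Gbp2 promoter held only the response element. Over all 32851 RefSeq promoters of this length, 8.3% held the first motif and 3.44% the second. The response element was found in 5 of 5 GBP promoters and 6 of 8 IRG promoters present in the table, and the gamma-activated site in 2 and 4 of them. Of 12 MHC class II promoters 1 held each motif. A match describes these letters only and was not tested as a binding site.

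The libraries did not all stand as their labels would place them. Totals were 73.6, 97.9 and 96.8 M counts in IFN 1, 2 and 5 and 95.8, 95.6 and 97.7 M in UT 1, 4 and 5, and IFN 1 had the lowest total of the 63 libraries, which reached 106.6 M. IFN 1 also stood apart in content: its summed level of 20 resident large macrophage genes was 26600 CPM (the count scaled to the library's total after TMM scaling), against 4330 and 4840 CPM in the other IFN libraries and 2840 to 3500 CPM in UT. Its summed level of 68 lysosomal genes was 46100 CPM, against 106000 and 95900 CPM in the other IFN libraries and 110000 to 126000 CPM in UT. IFN library 2 of the wild-type old females stood apart from its group in the same lists. Its mean level of the resident genes was 6.53 log2 CPM, against 4.28 to 4.45 in the others of its group. For the lysosomal genes it was 7.48, against 8.16 to 8.36 log2 CPM. The interferon-inducible Gbp2 followed the age label more than the treatment label over the series, at 4370 to 7510 CPM in all 36 libraries labelled old and 13.5 to 883 CPM in all 27 labelled young, whatever the treatment label. For these reasons the groups are called libraries labelled IFN or UT, and the list counts are given with and without IFN 1.

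The cells were macrophages by their defining genes. Lyz2, the lysozyme of myeloid cells, had 23770, 21970 and 19270 CPM in IFN 1, 2 and 5, against 25690, 25520 and 26480 CPM in UT 1, 4 and 5. Adgre1, which encodes F4/80, had 1334, 994 and 1038 CPM in IFN, against 703, 898 and 882 CPM in UT, and was not called (log2 change 0.44 ± 0.21, adjusted p = 0.178). Of 18 macrophage identity genes, 3 were called higher (Marco, Msr1 and Cd14) and 1 lower (Lgals3), and none of them without IFN 1, where 9.18% of all genes tested were called higher and 5.48% lower with all 6 libraries. With the B and T cell list means as covariates 1 was higher, and Marco, Cd14 and Lgals3 turned to -0.55, -0.37 and 0.10. All 6 libraries carried the female transcript Xist, at 333, 264 and 291 CPM in IFN and 339, 362 and 169 CPM in UT. The Y-linked Ddx3y had 5.89, 0.125 and 8.93 CPM in IFN 1, 2 and 5, against 0.475, 0.347 and 1.48 CPM in UT, and 33.9 to 67.9 CPM in the wild-type male libraries. The amounts in IFN 1 and 5 lay above those of all UT libraries and far below those of males. Of 4 Y-linked genes, 3 were called higher and none without IFN 1, and the source of these transcripts was not tested.

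With all 6 libraries, 2034 of 22147 genes tested were called higher in libraries labelled IFN (9.18%) and 1214 lower (5.48%) by the quasi-likelihood test of edgeR at an adjusted p of 0.05. Without IFN 1, 655 genes were called higher (2.98%) and 145 lower (0.66%), of which 639 and 141 were also called with all 6. IFN 1 was the highest of the IFN libraries in 84.7% of the genes called higher, against 42.8% of all genes tested, and the lowest in 92.1% of those called lower, against 43.8%. Leaving out UT 1 or UT 5 instead gave 689 or 748 genes lower. Absence of overlap between the groups is common by itself: 11.5% of all genes tested had every IFN library above every UT library, and 10.8% had every one below. The fit drew its spread from all 63 libraries. A fit of the 6 libraries alone, which also changed the filter and the genes tested, called no gene of 18165, with 1763 higher and 850 lower at an unadjusted p below 0.05 and a lowest adjusted p of 0.0952.

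Genes that follow lymphocyte markers made up a large share of those called higher. A gene was counted as following lymphocyte markers when it was on the B, T, NK or plasma cell list or the antibody constant region list. Antigen receptor segments were counted too. So was a gene whose level moved with the mean of the B or T cell list (Pearson r of at least 0.6). That correlation was taken over the 57 libraries of the other 14 groups, after each group's mean was removed. Such genes were 5.12% of those tested, yet 728 of the 2034 genes called higher (35.8%) and 3 of the 1214 called lower. Without IFN 1 they were 238 of 655 (36.3%). The mark records an association only, since the libraries share cell sources: 12 of 20 resident large macrophage genes also carried it. The 57 libraries include IFN library 2 of the wild-type old females, the highest of its group in the resident list (6.53 log2 CPM) and the B cell list (5.21 log2 CPM). Antigen receptor segments, predicted genes and pseudogenes were set aside from the ranking given next. Among the other followers with a mean of at least 5 CPM and no overlap between groups, Cdh17, Krt222, Fcrl5, Cacna1e, Ctla4, Pou2af1, Cxcr5, Tnfrsf13c and Ebf1 were of the 10 with the largest changes (5.54 to 6.01). Without IFN 1 their changes were 3.59 to 4.602, and Cdh17 was not called (adjusted p = 0.066). With the mean levels of the B and T cell lists as covariates in the fit, 1199 genes were called higher (5.41%) and 528 lower (2.38%). The B cell list mean itself separated the labels, at 3.28 to 5.98 log2 CPM in IFN and 0.27 to 1.55 log2 CPM in UT. The covariates thus overlap with the label, and their slopes come from differences within all 16 groups. A call lost or gained with them cannot tell a label effect from a lymphocyte effect. Without covariates, the other 1306 genes called higher, 417 without IFN 1, and 1211 called lower did not follow lymphocyte markers. The mark takes positive correlations only, so moving against the B and T cell lists could not earn it. The low number of marked genes among those called lower therefore does not set the falls apart from lymphocyte transcripts. Over the 12 genes named for the largest falls, r with the B cell list ran from -0.75 (Bex1) to 0.14 (Trim29). In bulk RNA, more cells of a type and more RNA per cell cannot be told apart.

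**Figure D1:**
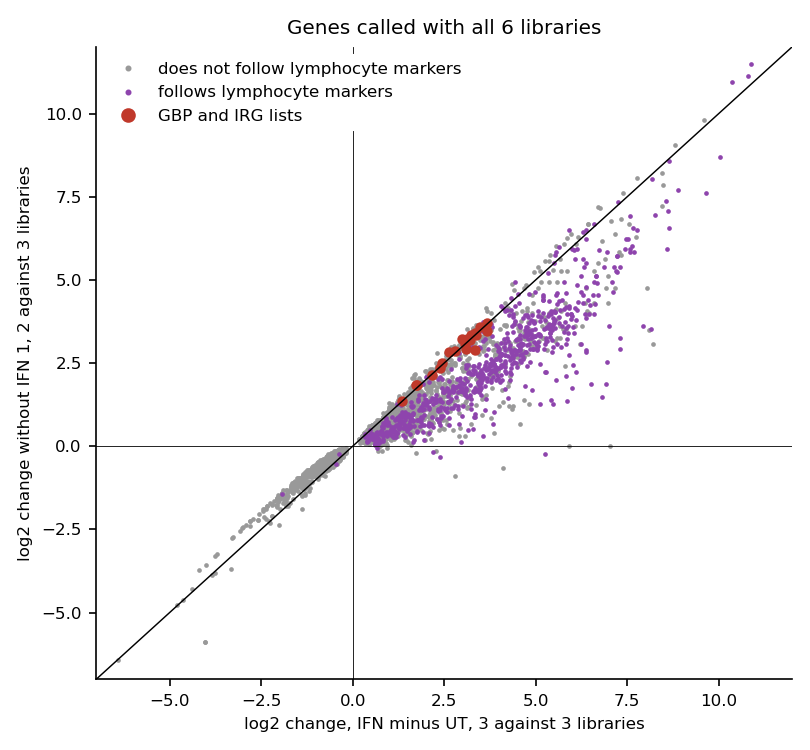
Each point is a gene called with all 6 libraries, with its log2 change (IFN minus UT) from 3 against 3 libraries on the x axis and from 2 against 3, without IFN 1, on the y axis; the diagonal marks equal change. Genes of the GBP and IRG lists lie near the diagonal, and most genes that follow lymphocyte markers lie below it.

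Of the signalling genes, Irf1 and the feedback inhibitor Socs1 were higher and the receptor chain Ifngr2 was lower. Irf1 had 161, 131 and 169 CPM in IFN 1, 2 and 5, against 34.9, 26.2 and 66.0 CPM in UT 1, 4 and 5. Every IFN library lay above every UT library, and UT 5 was the highest of its group (log2 change 1.86 ± 0.30, adjusted p = 1.64e-05). Socs1, which blocks the receptor's kinases, had 20.0, 23.3 and 29.5 CPM in IFN, against 2.44, 0.858 and 8.09 CPM in UT. That was a mean log2 change of 2.68 ± 0.55 (adjusted p = 3.93e-04). Ifngr2 had 136, 152 and 150 CPM in IFN, against 206, 183 and 193 CPM in UT, and fell in every IFN library relative to every UT library (-0.41 ± 0.07, adjusted p = 4.44e-05). Ifngr1 was not called, with 157, 170 and 164 CPM in IFN and 192, 174 and 198 CPM in UT. Ifng itself was at 0, 0 and 0.0473 CPM in IFN and 0, 0 and 0.0103 CPM in UT and was not called. In this list of 16, 9 members rose and 1 fell, with a median log2 change of 0.51 beside -0.003 over all genes tested, and without IFN 1 there were 6 and 1. The rises of Irf1 and Socs1 and the fall of Ifngr2 held without IFN 1, with log2 changes of 1.84, 2.82 and -0.35. With the covariates 4 members were higher and 2 lower, and Socs1 was not called (2.12, adjusted p = 0.0526).

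All 11 GBPs were higher, with and without IFN 1, at median log2 changes of 3.07 and 3.22. Gbp2 had 655, 693 and 883 CPM in IFN 1, 2 and 5, against 46.8, 13.5 and 195 CPM in UT 1, 4 and 5. The IFN libraries lay close together and above all UT libraries, while the UT libraries spread widely, with UT 5 highest and UT 4 lowest (3.13 ± 0.66, adjusted p = 5.94e-04). Gbp5, which assembles on microbial vacuoles and inflammasomes, had 131, 90.8 and 149 CPM in IFN, against 9.87, 2.13 and 24.0 CPM in UT (3.36 ± 0.68, adjusted p = 3.22e-04). Gbp2b, also called Gbp1, had 18.0, 18.4 and 19.0 CPM in IFN, against 1.13, 0.215 and 3.00 CPM in UT. Its 3 IFN values were nearly equal, and its UT values kept the order of Gbp2. Gbp9 had the smallest adjusted p of the list (9.09e-07) at 39.7, 28.2 and 44.1 CPM in IFN, against 7.69, 6.41 and 10.7 CPM in UT. None of the 11 followed lymphocyte markers, and with the B and T cell lists as covariates 9 of 11 were still called (median 2.83), and Gbp5 was not (2.47, adjusted p = 0.0681). Reads of close copies such as Gbp6 and Gbp10 may have been split by the counting.

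Of 11 IRGs tested, 9 rose, with and without IFN 1, and none followed lymphocyte markers. With the covariates 6 were called higher (median 1.82), and Tgtp2 was not (2.57, adjusted p = 0.077). Tgtp2, whose promoter held both motifs side by side, had 161, 132 and 175 CPM in IFN, against 12.6, 1.74 and 36.4 CPM in UT (3.20 ± 0.71, adjusted p = 0.00106). Irgm1, which restrains the other IRGs on the cell's own membranes, had 128, 140 and 182 CPM in IFN, against 38.8, 35.7 and 61.3 CPM in UT. Its change was smaller but its UT libraries were less spread (1.73 ± 0.26, adjusted p = 4.48e-06). Iigp1, which loads onto parasite vacuoles, had 196, 206 and 262 CPM in IFN, against 13.3, 1.33 and 45.0 CPM in UT (3.48 ± 0.80, adjusted p = 0.00149). Both members not called were predicted genes, and 4 further listed names were not in the table. Tgtp1 and Tgtp2 are near-identical copies, so the split of reads between them is uncertain.

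**Figure D2:**
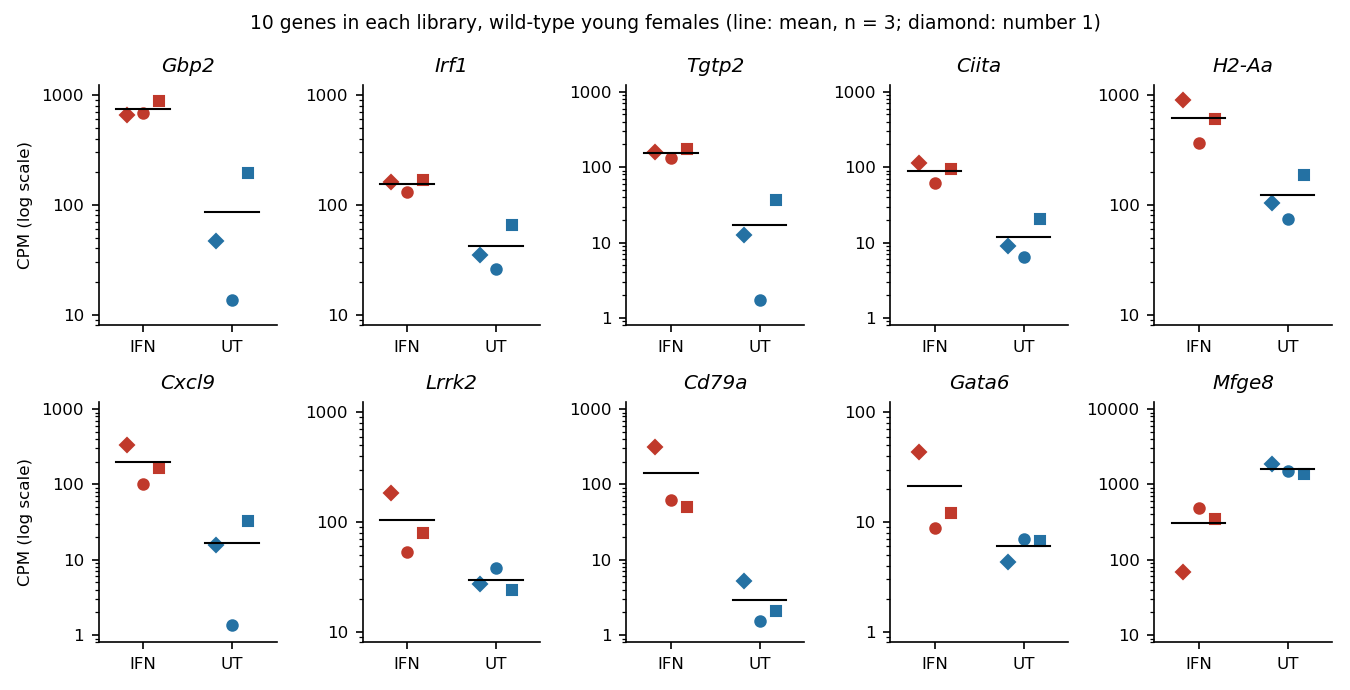
Level of 10 genes in CPM on a log axis, libraries labelled IFN (red) left of UT (blue), with each group's mean as a line (n = 3) and number 1 as a diamond. IFN and UT do not overlap for any of the 10, where 11.5% of all genes tested had all IFN above all UT libraries and 10.8% all below. IFN 1 stands apart for Cd79a, Gata6 and Mfge8 but not for Gbp2, Irf1 or Tgtp2.

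Of 34 other genes known to respond to IFN-γ, 27 rose and none fell (median 2.03), and 19 rose without IFN 1 (median 1.87). With the covariates 9 were higher and 2 lower (median 0.92). Acod1, which makes itaconate, had 167, 86.3 and 139 CPM in IFN, against 15.6, 4.63 and 23.8 CPM in UT, a log2 change of 3.16 ± 0.64. Il18bp, which binds and blocks IL-18, had 47.1, 54.2 and 70.9 CPM in IFN, against 10.7, 8.69 and 20.9 CPM in UT. Serpina3g, a protease inhibitor, had 44.3, 49.1 and 52.3 CPM in IFN, against 1.38, 0.490 and 9.59 CPM in UT. In all 3 the IFN libraries lay above the UT libraries, and the changes held without IFN 1 (2.96, 2.24 and 3.75). With the covariates Acod1 was not called (1.58, adjusted p = 0.214). Nos2, the inducible nitric oxide synthase, had 51.3, 8.95 and 16.6 CPM in IFN, against 5.75, 0.164 and 2.29 CPM in UT, and was not called despite the absence of overlap (3.23 ± 1.21, adjusted p = 0.0618, and 2.23 without IFN 1). Ido1 was near 0 in every library, and Fcgr1, Casp1, Gch1, Apol6 and Apol9a were not called either. Of the 34, 4 followed lymphocyte markers, among them Cd38, a surface enzyme of B cells and activated macrophages, at 176, 30.1 and 33.3 CPM in IFN and 13.02, 6.74 and 10.7 CPM in UT.

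Il12rb1, Klrk1, Tlr12, Dnase1l3 and Clec9a, which were placed together after their values were seen, had log2 changes of 2.81 to 3.78, and of 2.92 to 3.64 without IFN 1. Klrk1, the activating receptor NKG2D, had 3.96, 5.38 and 6.02 CPM in IFN, against 0.374, 0.255 and 1.21 CPM in UT (3.06 ± 0.46, adjusted p = 3.88e-06). It stands on the NK cell list, of which 9 of 15 members rose, Nkg7 among them, while Ncr1, a defining NK cell gene, was at 0, 0.0386 and 0.132 CPM in IFN and 0.0202, 0 and 0.0724 CPM in UT. Clec9a, a receptor for dead cells known from dendritic cells, had 15.1, 17.5 and 19.2 CPM in IFN, against 1.76, 1.08 and 4.52 CPM in UT, on a dendritic cell list of which 6 of 12 rose. Xcr1 of the same dendritic cells was at or below 0.212 CPM in every library and was not called. The part of NK cells and dendritic cells in these changes was not tested. Tlr12, a receptor for profilin, had 4.96, 6.43 and 10.8 CPM in IFN, against 0.172, 0.204 and 1.89 CPM in UT. For each of these genes UT 5 was the highest UT library, as for the GBPs.

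Antigen presentation genes of MHC class II were higher, and B cell transcripts accompany part of the list. Ciita had 115, 62.04 and 93.6 CPM in IFN 1, 2 and 5, against 9.03, 6.39 and 20.3 CPM in UT 1, 4 and 5 (2.92 ± 0.42, adjusted p = 2.35e-06). H2-Aa, an alpha chain, had 895, 369 and 609 CPM in IFN, against 103, 75.1 and 189 CPM in UT (2.35 ± 0.28, adjusted p = 1.24e-07). Cd74, the invariant chain, had 1667, 775 and 1259 CPM in IFN, against 189, 139 and 347 CPM in UT. No UT library reached an IFN library in any of the 3, and without IFN 1 the log2 changes were 2.73, 2.01 and 2.19. H2-Ob and H2-Oa, which encode a regulator of peptide loading known from B cells, and the loading chaperone gene H2-DMb2 moved with the B cell list over the other libraries (r = 0.98, 0.87 and 0.71). H2-Ob had 171, 10.8 and 31.4 CPM in IFN, against 4.35, 0.858 and 1.05 CPM in UT. Its order among the IFN libraries was also that of Ciita, H2-Aa and Cd74, so the order does not set it apart from them. Among the UT libraries H2-Ob was highest in UT 1, and Ciita, H2-Aa and Cd74 in UT 5. Ciita, H2-Aa and Cd74 moved little with the B cell list (r = 0.11, 0.17 and 0.28) and somewhat more with the T cell list (r = 0.23, 0.41 and 0.40). Of the 16 members 12 rose (median 2.31), 11 of them without IFN 1 (median 1.88), and Ctss, Ifi30, Rfxap and Rfxank were not called. With the B and T cell covariates 8 rose, with a median of 0.89, and H2-Ob turned to -0.37.

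MHC class I genes changed less in size. H2-K1, a class I heavy chain, had 1897, 1195 and 1592 CPM in IFN, against 877, 813 and 958 CPM in UT (0.82 ± 0.13, adjusted p = 1.07e-05). Tap1, which pumps peptides into the endoplasmic reticulum, had 134, 124 and 159 CPM in IFN, against 52.5, 47.0 and 71.5 CPM in UT (1.29 ± 0.18, adjusted p = 2.06e-06). In this list of 23, 17 rose and none fell (median 0.48), and 14 rose without IFN 1 (median 0.56), with H2-K1 at 0.67 and Tap1 at 1.33. With the covariates 5 were higher (median 0.34), Tap1 was called (1.06) and H2-K1 was not (0.34, adjusted p = 0.183). Nlrc5, the class I counterpart of Ciita, and Psmb8 and Psmb9 of the immunoproteasome were among them.

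Ligands for T cells rose in 9 of 13 tested, 6 of them without IFN 1. Pdcd1lg2, the inhibitory ligand PD-L2, had 12.1, 9.50 and 8.73 CPM in IFN, against 1.17, 0.930 and 1.64 CPM in UT (3.02 ± 0.40, adjusted p = 5.53e-07). Cd274, the related PD-L1, had 159, 138 and 194 CPM in IFN, against 93.5, 75.6 and 95.4 CPM in UT (0.89 ± 0.19, adjusted p = 4.77e-04). Cd40, which receives help from T cells, had 34.4, 17.4 and 23.3 CPM in IFN, against 6.88, 6.19 and 9.15 CPM in UT. Without IFN 1 the changes of Pdcd1lg2, Cd274 and Cd40 were 2.88, 0.92 and 1.47, and all 3 were called. With the covariates 2 of the 13 were higher, Pdcd1lg2 was called (3.00), and Cd274 (adjusted p = 0.0962) and Cd40 (0.653) were not. Cd80 was not called, and Cd86, with 79.3, 20.3 and 25.8 CPM in IFN and 11.9, 8.84 and 11.7 CPM in UT, followed lymphocyte markers.

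Secreted messengers showed how much of the change rested on a single library. Cxcl9, a chemokine for T cells, had 330, 99.98 and 166 CPM in IFN, against 15.7, 1.37 and 32.6 CPM in UT (3.59 ± 0.96, adjusted p = 0.00691). Without IFN 1 its log2 change was 3.02 at an adjusted p of 0.0748, so it was no longer called. Cxcl10 had 13.5, 15.5 and 22.1 CPM in IFN, against 3.11, 0.603 and 5.04 CPM in UT, and was the only CXC chemokine of 11 called without IFN 1 (2.703, adjusted p = 0.00676), where 6 were called with it. Cxcl13, a chemokine for B cells made by resident macrophages, had 1181 CPM in IFN 1 but 33.6 and 15.9 CPM in IFN 2 and 5, against 9.81, 7.76 and 11.3 CPM in UT. Its log2 change of 5.41 fell to 1.38 without IFN 1 (adjusted p = 0.418). Of 12 CC chemokines 4 rose and Ccl3 fell, and 2 rose without IFN 1, Ccl12 and Ccl2. With the covariates 1 CXC chemokine and 4 CC chemokines were higher, Cxcl13 turned to -0.77 and Ccl3 turned to 0.12. Ccl12 had 0.617, 0.887 and 1.02 CPM in IFN, against 0.121, 0.0102 and 0.186 CPM in UT.

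Cytokine genes rose in 9 of 19, and in 5 without IFN 1. With the covariates 2 were higher and 1 lower (median 0.09). Tnfsf10, the death ligand TRAIL, had 8.76, 3.71 and 5.36 CPM in IFN, against 1.37, 0.960 and 1.48 CPM in UT (2.22 ± 0.34, adjusted p = 5.15e-06). Its change was 1.85 without IFN 1, and with the covariates 1.04 and not called (adjusted p = 0.0899). Il12b, a subunit of IL-12, stayed low at 0.507, 0.501 and 0.615 CPM in IFN, against 0.0303, 0.0919 and 0.104 CPM in UT. Il1b had 14.9 CPM in IFN 1, 1.73 and 2.54 CPM in IFN 2 and 5 and 0.909, 1.66 and 1.11 CPM in UT, and its call was lost without IFN 1. Of 33 genes of the type I interferon response, 16 rose (median 0.60), 8 of them without IFN 1, and 10 of the 33 followed lymphocyte markers. With the covariates 1 of the 33 was higher and 1 lower, and the median turned to -0.11. Ifit2 had 66.0, 53.8 and 85.3 CPM in IFN, against 5.84, 3.10 and 15.3 CPM in UT (3.08 ± 0.54), whereas Rsad2, a classical type I target, had 11.2, 14.5 and 18.1 CPM in IFN and 16.9, 15.4 and 14.6 CPM in UT and was not called.

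B cell transcripts were higher in every library labelled IFN than in any labelled UT, with mean levels of the identity list of 5.98, 3.28 and 3.79 log2 CPM in IFN 1, 2 and 5 and 1.55, 0.27 and 0.30 log2 CPM in UT 1, 4 and 5. Cd79a, a signalling chain of the B cell receptor, had 311, 62.8 and 50.15 CPM in IFN 1, 2 and 5, against 5.25, 1.54 and 2.08 CPM in UT 1, 4 and 5 (5.58 ± 0.82, adjusted p = 3.13e-06). Pax5, which fixes B cell identity, had 107, 9.50 and 17.4 CPM in IFN, against 2.36, 0.490 and 0.611 CPM in UT. Ighm, the IgM heavy chain, had 1469, 413 and 177 CPM in IFN, against 39.1, 12.8 and 14.8 CPM in UT. IFN 1 was highest and UT 1 was the highest of its group in all 3, and without IFN 1 the log2 changes were 4.26, 3.55 and 3.74. Of 26 B cell identity genes 22 rose, with a median of 4.88, and 20 rose without IFN 1, with a median of 3.32. The covariates hold these genes themselves, and with them 3 were higher and 2 lower. The members that fell were Blnk and Cd22, at 124, 178 and 164 CPM and 136, 118 and 118 CPM in IFN, against 203, 193 and 211 CPM and 163, 175 and 176 CPM in UT. In UT both genes were thus above 100 CPM in libraries where Pax5 was at 2.36 CPM or less. The summed level of the list was 2580, 636 and 700 CPM in IFN and 483, 448 and 478 CPM in UT.

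The antibody segments in use differed between libraries. Of 260 immunoglobulin and T cell receptor segments tested 169 were called higher. Variable segments held 58097, 30976 and 9941 counts in IFN 1, 2 and 5, against 2384, 812 and 803 counts in UT 1, 4 and 5. In UT the same heavy-chain segment, Ighv11-2, led in all 3 libraries, with 35.2%, 47.9% and 40.4% of heavy variable counts, and Igkv14-126 led the kappa counts with 33.5%, 37.1% and 31.2%. This pair is known from peritoneal B-1a cells that bind phosphatidylcholine. Among the 3 IFN libraries each had a leader of its own. IFN 2 was dominated by Ighv5-6 with 90.5% of 14354 heavy counts (exact 95% binomial interval 90.0 to 91.0%) and Igkv8-30 with 77.8% of 16383 kappa counts (77.1 to 78.4%). In IFN 1 Ighv1-52 led with 33.6% (33.0 to 34.2%) and in IFN 5 Ighv1-55 with 25.8% (24.5 to 27.2%). These intervals cover counting error only, since reads from 1 molecule are not independent. The leaders were not private to these libraries. In wild-type old females Ighv5-6, Igkv8-30 and Ighv1-52 were also called higher under the IFN label (log2 changes 9.97, 9.70 and 8.09). Ighv1-52 was called higher in knock-in young females too (5.93).

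Most T cell and NK cell genes were higher as well, each at a low level. The summed level of the T cell list went the other way, at 180.0, 448 and 487 CPM in IFN, against 682, 641 and 536 CPM in UT. Most of that sum was Il7r, a cytokine receptor chain, at 53.0, 410.0 and 430.0 CPM in IFN and 654, 614 and 515 CPM in UT. The NK and innate lymphoid list summed to 41.8, 20.3 and 39.1 CPM in IFN, against 6.42, 4.10 and 9.12 CPM in UT. Cd3d, part of the T cell receptor complex, had 1.08, 0.550 and 1.11 CPM in IFN, against 0.0909, 0.0306 and 0.0724 CPM in UT (3.79 ± 0.81, adjusted p = 6.28e-04). Cd8a had 1.86, 0.511 and 1.81 CPM in IFN, against 0.0101, 0.0715 and 0.0621 CPM in UT. For these genes IFN 5 was as high as IFN 1, with IFN 2 lower but above all UT libraries, and without IFN 1 the changes were 3.66 and 4.58. Of 27 T cell genes 21 rose (median 3.56), 16 of them without IFN 1 (median 3.12), and Cd4, Cd28, Zap70, Lat, Foxp3 and Il7r were not called. Cd3e had 0.893, 0.222 and 0.861 CPM in IFN, against 0.0303, 0.133 and 0.0414 CPM in UT, and was called with IFN 1 (adjusted p = 0.0105) but not without it (0.0748). On the NK and innate lymphoid list 9 of 15 rose, 5 without IFN 1 and 3 with the covariates, and the defining genes Ncr1 and Klrb1c were not called. Nkg7, a granule protein of killer cells, had 0.551, 0.858 and 1.10 CPM in IFN, against 0.0202, 0.0102 and 0.0207 CPM in UT.

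Lists of further cells moved unevenly with the IFN label, and mast cell genes had the largest share of members called higher. Mast cell genes summed to 134, 49.2 and 16.3 CPM in IFN 1, 2 and 5, against 6.36, 6.51 and 10.0 CPM in UT, and 10 of 12 rose, 3 of them without IFN 1, and none was called with the covariates. The mast cell protease Mcpt4 had 12.9, 8.11 and 0.738 CPM in IFN, against 0.283, 0.0919 and 0.217 CPM in UT. Haemoglobin followed another order: Hba-a1 had 102, 0.511 and 20.5 CPM in IFN, against 3.58, 0.358 and 0.880 CPM in UT, with IFN 2 inside the UT range. Red cell genes were called higher in 4 of 7, none of them without IFN 1. Dendritic cell genes rose in 6 of 12, 5 without IFN 1 and 1 with the covariates. Neutrophil genes did not rise, with 2 of 10 lower (Ltf and Cxcr2, the second at 0.26 with the covariates) and none called without IFN 1. On the eosinophil list Ear2 fell and 2 of 6 rose, Il5ra and Alox15, of which Il5ra is also known from B-1 cells and Alox15 from resident macrophages, and the defining genes Siglecf and Ccr3 were not called. Mesothelial and fibroblast genes were called higher in 3 and lower in 2 of 20, where 9.18% and 5.48% of all genes tested were called. Of these 20, 1 (Thy1) was higher without IFN 1 and 11 with the covariates (median 2.35). Over all genes tested 2.98% and 5.41% were higher under these settings. The part of these cells in the changes of shared genes was not tested beyond the values given with and without covariates.

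**Figure D3:**
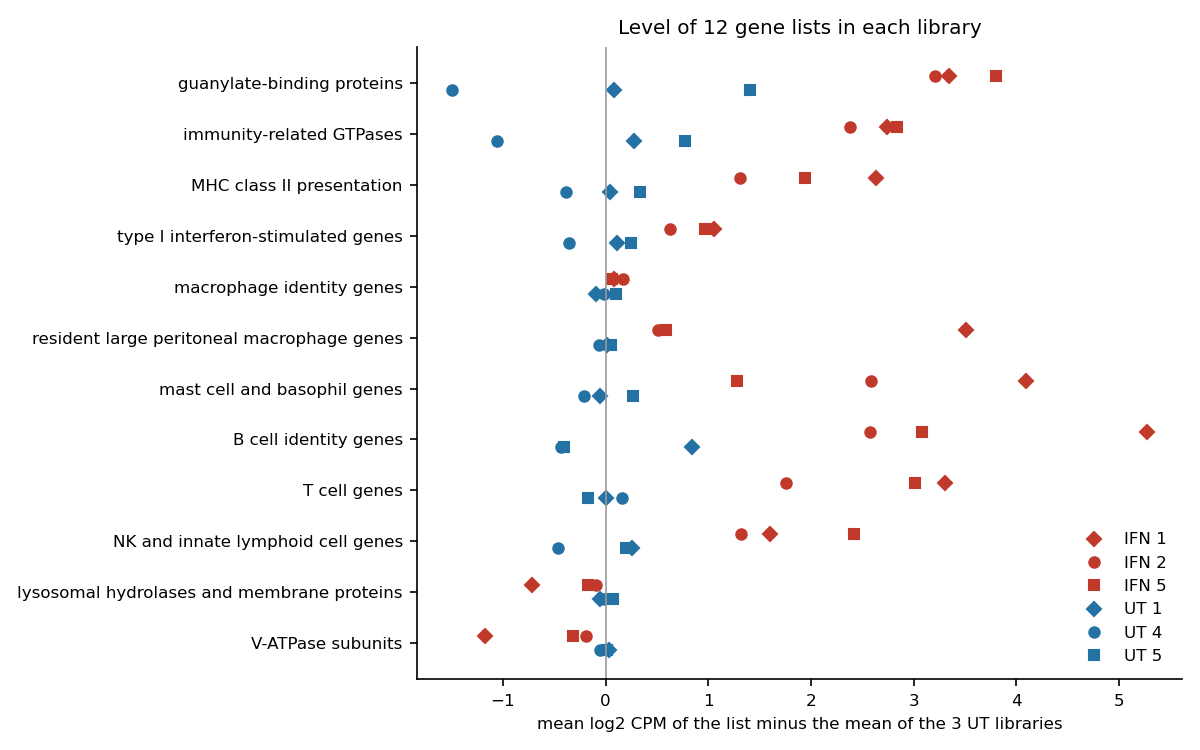
Mean log2 CPM of 12 gene lists in each library, set against the mean of the 3 UT libraries (x axis, log2 units), IFN in red above UT in blue. The GBP, IRG and type I interferon lists lie close together in IFN 1, 2 and 5, while the MHC class II list is more spread, with IFN 1 highest. IFN 1 stands alone in the resident macrophage, B cell, lysosomal and V-ATPase lists.

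Genes of resident large peritoneal macrophages were high in IFN 1. Gata6, their master factor, had 43.5, 8.83 and 12.2 CPM in IFN 1, 2 and 5, against 4.30, 6.97 and 6.75 CPM in UT 1, 4 and 5. The groups did not overlap and the gene was called (1.84 ± 0.38, adjusted p = 3.93e-04), but not without IFN 1 (0.82, adjusted p = 0.208). Alox15, a lipoxygenase, had 1123, 16.2 and 25.1 CPM in IFN, against 8.28, 7.32 and 10.5 CPM in UT. Timd4, a receptor for dying cells, had 67.4, 4.80 and 4.26 CPM in IFN, against 4.43, 0.991 and 2.03 CPM in UT, so that IFN 5 lay below UT 1. With the B and T cell covariates Alox15 turned to -0.35 and Timd4 to -1.79. Of the 20 members 16 were called higher with IFN 1 (median 2.27) and none without it (median 0.63), and with the covariates 4 were lower (median -0.79). On the list of monocyte-derived macrophage genes 7 of 16 rose, 2 without IFN 1 and 3 with the covariates, of which Plac8 had 165, 25.2 and 26.1 CPM in IFN, against 3.53, 0.879 and 3.03 CPM in UT. Arg1, arginase, had 885 CPM in IFN 1 and 101 and 113 CPM in IFN 2 and 5, against 53.5, 50.05 and 84.5 CPM in UT, and lost its call without IFN 1.

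Receptors that take up debris and complement moved in both directions. Mfge8, which bridges dying cells to phagocytes, had 68.7, 493 and 349 CPM in IFN, against 1875, 1492 and 1376 CPM in UT (-2.38 ± 0.45, adjusted p = 1.49e-04). All IFN libraries lay below all UT libraries, IFN 1 furthest, and the fall was called without IFN 1 (-1.90, adjusted p = 0.00647) but not with the covariates (-1.03, adjusted p = 0.212). C1qc, a chain of complement C1q, had 893, 678 and 721 CPM in IFN, against 395, 349 and 490 CPM in UT (0.89 ± 0.18). Axl, a receptor for dying cells, had 96.4, 91.3 and 146 CPM in IFN, against 44.5, 50.4 and 60.4 CPM in UT (1.10 ± 0.27). C1qc and Axl were called without IFN 1 (0.78 and 1.21) and with the covariates (0.91 and 1.10). On this list of 24, 9 rose and 3 fell, and without IFN 1 there were 3 and 1, and with the covariates 6 and 0. Marco, a scavenger receptor, had 1274, 218 and 85.8 CPM in IFN, against 57.02, 40.9 and 45.0 CPM in UT, was called only with IFN 1, and turned negative with the covariates. Of 19 Fc-gamma and Toll-like receptor genes 5 rose, 3 without IFN 1; Tlr9, a sensor of DNA, had 31.3, 11.9 and 23.7 CPM in IFN, against 5.19, 6.59 and 5.96 CPM in UT (1.91 ± 0.25, and 1.60 without IFN 1).

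Genes of lysosomes and of their acidification were lower, and most of these calls were lost without IFN 1. Of 68 lysosomal genes 18 fell and 3 rose (median -0.31), while without IFN 1 2 fell (Ctsk and Ctsl) and 2 rose (Ctsc and Ppt1), with a median of -0.11. Ctsk, a cathepsin best known from bone-resorbing cells, had 39.0, 172 and 125 CPM in IFN, against 584, 385 and 383 CPM in UT (-2.01 ± 0.43, adjusted p = 6.16e-04). Ctsl, cathepsin L, had 709, 2681 and 1962 CPM in IFN, against 4603, 3940 and 4751 CPM in UT (-1.31 ± 0.28), with an adjusted p of 0.0423 without IFN 1. With the covariates Ctsk (adjusted p = 0.152) and Ctsl (0.821) were not called. Ctsc, which activates granule proteases, had 593, 618 and 665 CPM in IFN, against 155, 204 and 280 CPM in UT (1.56 ± 0.22, adjusted p = 1.56e-06). It was as high in IFN 1 as in the others. Lamp1, a major membrane protein, had 1336, 2433 and 2187 CPM in IFN, against 2598, 2557 and 2844 CPM in UT, and its log2 change of -0.43 was -0.19 and not called without IFN 1, and 0.17 with the B and T cell covariates.

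V-ATPase genes, which encode the proton pump, fell in 10 of 19 (median -0.39), but in 1 without IFN 1, Atp6v1e1, when Atp6v0a2 was called higher. Atp6v1e1 had 227, 320 and 284 CPM in IFN, against 407, 380 and 439 CPM in UT (-0.56 ± 0.11, adjusted p = 3.03e-04). Tcirg1 had 352, 900 and 842 CPM in IFN, against 1410, 1108 and 1328 CPM in UT, and its adjusted p was 0.0559 without IFN 1. Of 25 autophagy genes 7 fell, none without IFN 1 and 2 with the covariates. With the B and T cell covariates no lysosomal gene fell and 7 rose, and no V-ATPase gene fell. Ctsc was called (1.83) and Atp6v1e1 was not (-0.44, adjusted p = 0.066).

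**Figure D4:**
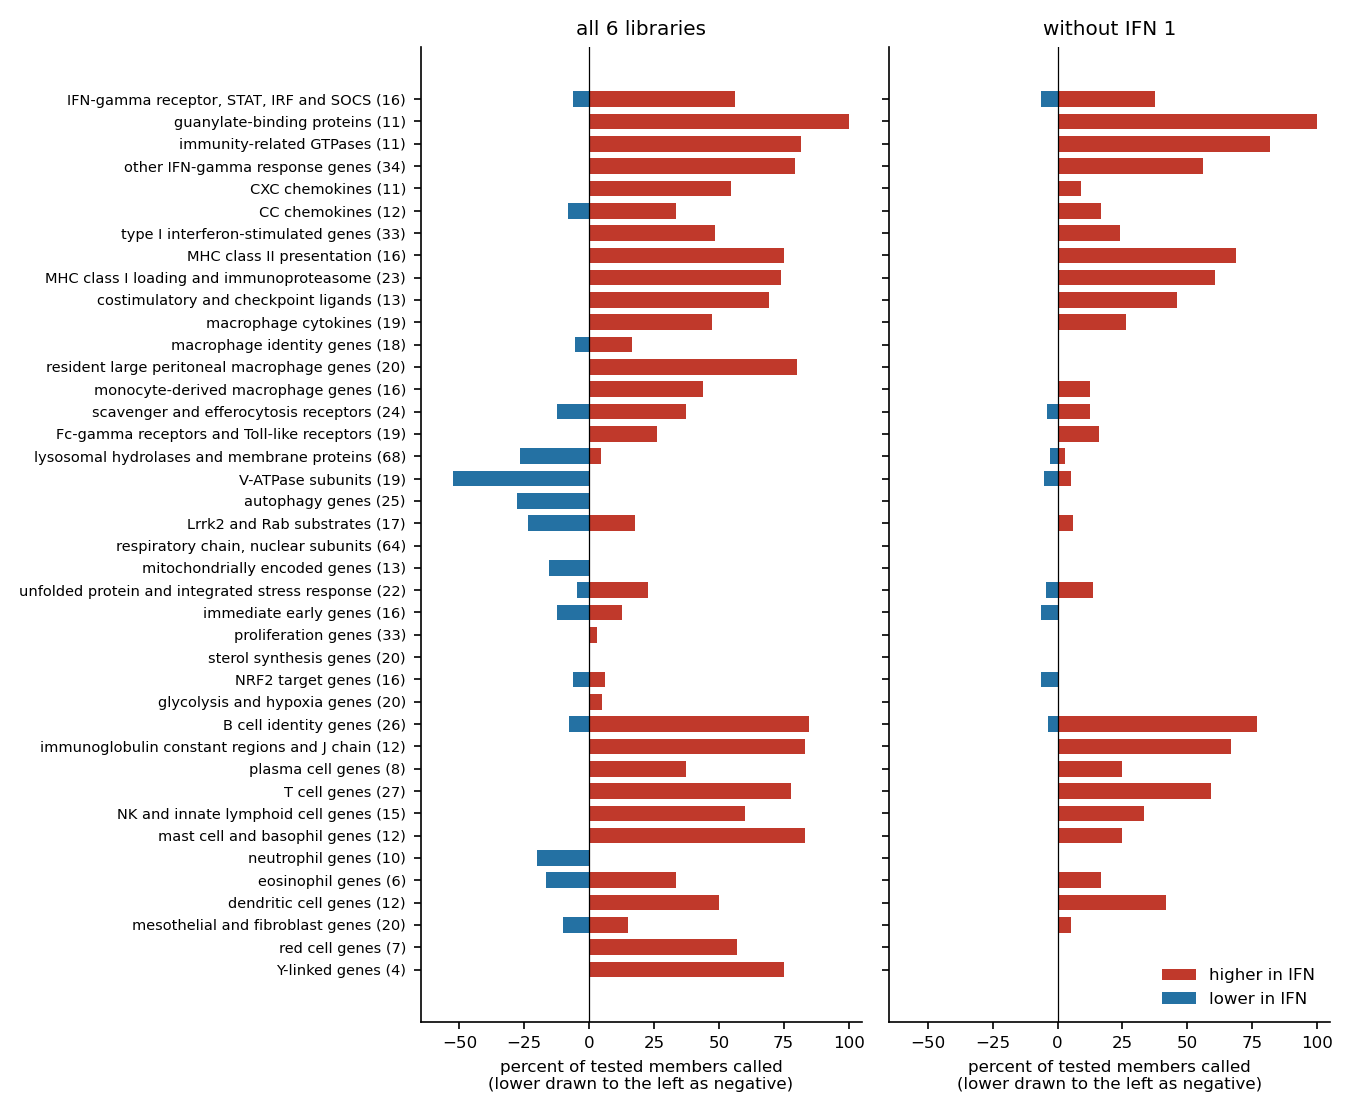
Percent of tested members of each gene list called higher (red, to the right) or lower (blue, to the left) in libraries labelled IFN, with all 6 libraries on the left and without IFN 1 on the right; numbers in brackets are members tested. GBPs are called in full on both sides, while calls in the resident macrophage, lysosomal, V-ATPase and red cell lists go down or vanish without IFN 1.

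Lrrk2, the gene that the series modifies, was itself higher, and this call was lost with the covariates. Its product is a kinase with Rab GTPases of endosomes and lysosomes as substrates, and B cells express it too. Lrrk2 had 182, 52.9 and 79.2 CPM in IFN 1, 2 and 5, against 27.0, 37.9 and 24.3 CPM in UT 1, 4 and 5. The groups did not overlap, and IFN 1 was well above the other IFN libraries (1.82 ± 0.31, adjusted p = 3.74e-05). Without IFN 1 the log2 change was 1.16 (adjusted p = 0.0133) and with the B and T cell covariates it was 0.51 and not called (adjusted p = 0.434). Its level moved with the B cell list over the other 57 libraries with r = 0.55, just under the limit used for lymphocyte followers. The covariates themselves differed between the labels, and the source of the Lrrk2 change was not tested. Of the 17 genes on the list of Lrrk2 and its Rab substrates 3 rose and 4 fell, and only Lrrk2 was called without IFN 1. Rab10 and Rab12, established substrates, were at 156, 132 and 142 CPM and 42.1, 45.7 and 44.6 CPM in IFN, against 128, 127 and 118 CPM and 45.7, 43.9 and 45.4 CPM in UT, and were not called.

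Bex1, Eef1a2 and Htr2b, genes known mainly from neurons, muscle or vessels, were among the genes with the largest falls. Bex1 had 0.496, 12.9 and 5.97 CPM in IFN 1, 2 and 5, against 46.0, 29.9 and 59.5 CPM in UT (-2.80 ± 0.57, adjusted p = 3.78e-04). Eef1a2, a translation factor, had 0.0772, 3.64 and 2.75 CPM in IFN, against 15.9, 20.2 and 15.7 CPM in UT (-2.99 ± 0.60). Htr2b, a serotonin receptor, had 0.705, 11.7 and 8.69 CPM in IFN, against 38.9, 34.7 and 27.2 CPM in UT. IFN 1 was lowest in each, and all 3 falls were called without it (-2.24, -2.42 and -1.71). With the covariates none of the 3 was called, with changes of -0.49, -0.96 and -1.02 (adjusted p = 0.614, 0.353 and 0.23). Trim29 was also lowest in IFN 1, at 2.99, 5.58 and 4.21 CPM in IFN and 19.8, 14.2 and 14.2 CPM in UT (-1.92 ± 0.32). Unlike those 3 genes it was called with the covariates (-2.10), and it was called without IFN 1 as well (-1.70). Tceal7, Scgb1a1, Sdk2, Map6 and Cdkn1c also fell (-2.93 to -1.79). Scgb1a1 was not called without IFN 1 (adjusted p = 0.0785), and none of these 5 was called with the covariates. Among large rises of genes that do not follow lymphocyte markers, Gpr171 had 3.88 (2.73 without IFN 1) and Vmn2r26 had 3.99 (1.20 and not called without IFN 1).

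The same label contrast was taken in 3 other sets of libraries and the difference of the contrasts was tested. In wild-type old females the IFN label gave 1929 genes higher (8.71%) and 2323 lower (10.5%), in wild-type young males 55 (0.248%) and 6 (0.0271%), and in knock-in young females 2022 (9.13%) and 1907 (8.61%). The median log2 change of the GBP list was 3.07 in wild-type young females, 0.09 in wild-type old females, 1.24 in wild-type young males and -0.66 in knock-in young females. The B cell list had medians of 4.88, 4.38, 2.85 and 2.49 in these sets, and the T cell list 3.56, 2.58, 3.36 and 0.63. Of the 26 B cell genes 22, 23, 6 and 19 were called higher in the 4 sets.

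The effect in wild-type young females exceeded that in wild-type old females for 354 genes (1.6%) and fell short of it for 47 (0.212%). Of the 354, 287 were also called higher in wild-type young females and 20 followed lymphocyte markers (5.65%). The difference was called higher for 9 of 11 GBPs, 7 of 11 IRGs, 8 of 16 MHC class II genes and 10 of 23 MHC class I genes, but for 1 of 26 B cell genes and no T cell gene. For Gbp2 it was 3.58 ± 0.80 (adjusted p = 0.00613), from means of 744 CPM (IFN) and 85.2 CPM (UT) in young females and 4990 CPM (IFN) and 6840 CPM (UT) in old females. Ciita had 90.2 and 11.9 CPM in the young IFN and UT libraries and 391 and 446 CPM in the old ones. Levels of both genes in old females were thus above those of the young IFN libraries under either label. Without IFN 1, 254 genes were higher (1.16%) and 26 lower (0.118%), and 205 of the 354 were shared. The 401 genes in either direction numbered 218 without UT 1 and 241 without UT 4.

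Against knock-in young females, which had 2 IFN and 5 UT libraries, the difference was called higher for 1038 genes (4.69%) and lower for 946 (4.27%), and without IFN 1 for 915 (4.17%) and 905 (4.12%). All 11 GBPs, 8 of 11 IRGs and 9 of 16 MHC class II genes were among those higher, beside 2 of 26 B cell and 5 of 27 T cell genes. Ctsc differed by 2.22 ± 0.32 (adjusted p = 1.06e-05), since it was higher in wild-type and lower in knock-in libraries under the IFN label (1.56 and -0.66, adjusted p = 0.0349). Gbp2 had 24.3 and 235 CPM in the knock-in IFN libraries and 192 to 485 CPM in knock-in UT. The knock-in IFN group therefore overlapped its UT group, unlike in wild-type. The 1984 genes in either direction became 518 without knock-in IFN library 1 and 845 without wild-type UT 1.

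Against wild-type young males, 30 genes differed upwards (0.135%) and 4 downwards (0.0181%), and without IFN 1 the counts were 1 (0.00455%) and 0. The 34 genes in either direction became 532 without IFN 2, 258 without IFN 5, 2 without UT 1, 0 without UT 4 and 63 without UT 5. Among the 30 were 5 MHC class II genes, and H2-Aa differed by 1.59 ± 0.36 (adjusted p = 0.0444). No GBP or IRG differed by this test. For Gbp2 the difference was 1.85 ± 0.82 (adjusted p = 0.41), with 235 to 662 CPM in male IFN libraries and 115 to 186 CPM in male UT libraries. A test that misses its threshold does not show that the sexes responded alike.

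**Figure D5:**
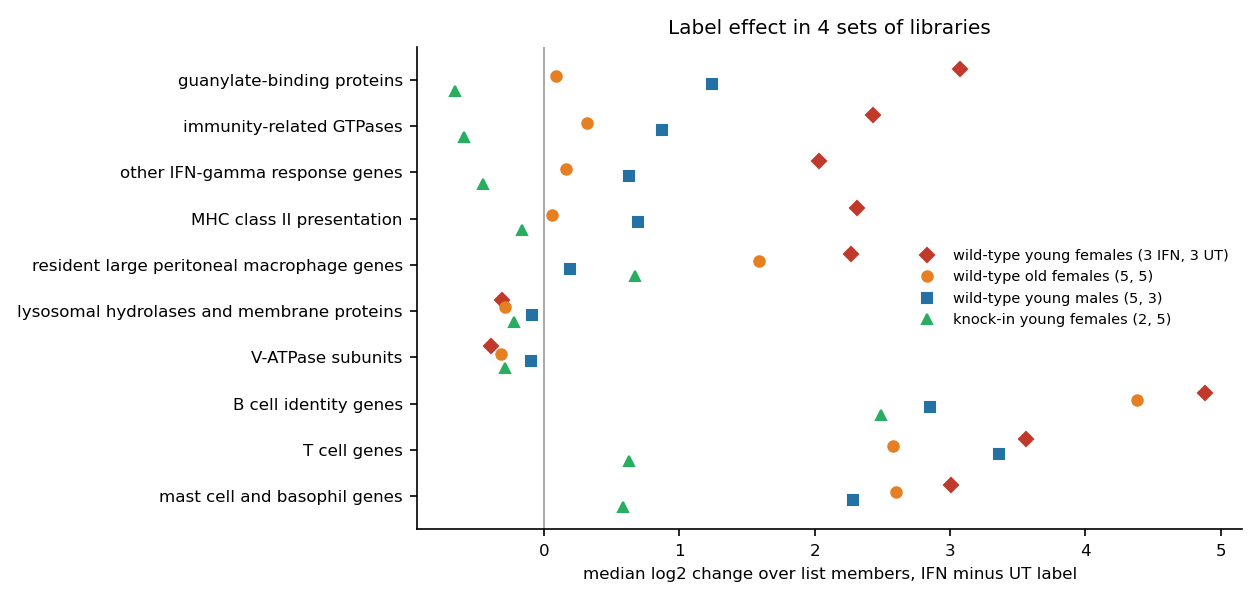
Median log2 change (IFN minus UT label, x axis) over the members of 10 gene lists in wild-type young females (red diamonds) and in 3 other sets of libraries. Interferon and MHC class II lists lie furthest right in wild-type young females, while B cell genes lie to the right of 2 in every set.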

How the data were processed

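RNA of adherent peritoneal cells was sequenced from polyadenylated transcripts with a directional kit in 63 libraries. The authors deposited whole-number counts per gene, which carry no normalization, and an FPKM table that was not used here. STAR 2.7.9a, DESeq2 1.40.2 and GRCm39 are named per the submitters' processing notes. For the read counter, the annotation and the strand setting, the sources used here give nothing. Symbols and promoters come from RefSeq tables of GRCm38.p6.

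After filterByExpr and TMM scaling, all 63 libraries entered the same model, which had 1 coefficient for each of 16 groups, and contrasts were tested by quasi-likelihood in edgeR 4.0.16 (limma 3.58.1, R 4.3.3). Contrasts are IFN minus UT, and differences are the effect in wild-type young females minus the effect in the other set. Benjamini-Hochberg adjustment ran over all genes tested, with calls at 0.05, and all adjusted p printed are from this test, and errors are standard errors of log2 changes. Levels are TMM-scaled CPM. The steps were tested on simulated data. Near-identical libraries formed 10 pairs in the series, none among these 6, and were joined as an alternative. Alternatives were RLE scaling, DESeq2 1.42.0, no filter, replicate blocks, covariates and leaving out libraries.

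The members, lists and tests were chosen with earlier results of these data known. Genes were named by rule: Lrrk2, Ifng, Gbp2, Xist and Ddx3y always; then, with at least 5 CPM and no overlap between groups, the largest changes (up to 10 higher that follow lymphocyte markers, 10 that do not, 12 lower); up to 4 called members a list by smallest p, or 6 for the GBP, IRG, CXC, MHC class II, B and T cell lists; and up to 3 each way for each difference. Predicted genes, pseudogenes and antigen receptor segments were left out of the largest changes and of the differences. The higher genes that do not follow lymphocyte markers also left out genes on the lists of other cell types. Of the 179 genes so named, 99 are printed, chosen after their values were seen, as were list members added for their known role. Some results are not reported here. Each list is described by counts and its median, with no list test.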

Additional observations from a re-analysis of the deposited data

Results flagged for a closer look

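The effect of the IFN label differed between sets of libraries by the test of the difference. Between young and old wild-type females, 354 genes had a higher and 47 a lower effect in the young. Dnase1l3, a nuclease that clears DNA of dead cells, differed by 4.78 on the log2 scale, Tlr12 by 4.44 and Serpina3g by 4.32. These 3 had log2 changes of 3.78, 3.30 and 3.67 in young females and -0.99, -1.15 and -0.65 in old females. Pdgfa, a growth factor, differed by -1.24, Gadd45a, a damage response gene, by -1.03 and Sgms2, a sphingomyelin synthase, by -0.80. Without IFN 1 the differences of Pdgfa and Sgms2 were not called (adjusted p = 0.0633 and 0.244).

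Between females and males of the wild-type young groups, 30 genes had a higher and 4 a lower effect in females. Alox15 differed by 5.06, Prr5, a subunit of the mTORC2 kinase, by 3.00, and H2-DMb2 by 2.04. B3gnt7 differed by -1.84 and Tmem165 by -0.57. None of these 5 was called without IFN 1, where the differences were 0.84, 2.00, 0.84, -1.49 and -0.40.

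Between wild-type and knock-in young females, 1038 genes had a higher and 946 a lower effect in wild-type. Alox15 differed by 5.01, Klrk1 by 5.00 and Il12rb1, a receptor chain for IL-12, by 4.90. Without IFN 1 Klrk1 and Il12rb1 kept differences of 5.15 and 5.08, and Alox15 had 0.78 and was not called. Adam33, a metalloprotease, differed by -2.65, the nuclear RNA Neat1 by -2.63 and Eno2, an enolase, by -2.40. Neat1 itself was not called in wild-type young females (-0.95, adjusted p = 0.19).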

How the results depend on the processing

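The counts of genes called moved with the libraries in the fit and with the covariates. In place of 2034 genes higher and 1214 lower, an edgeR fit of the 6 libraries alone, with its own filter (18165 genes tested), called 0 of either (1763 and 850 at an unadjusted p below 0.05), and B and T cell list means as covariates gave 1199 and 528. Leaving out each library in turn gave 655 to 2585 higher and 145 to 1556 lower. Genes lower numbered 773 with lymphocyte followers left out and 749 with near-identical libraries joined. Without IFN 1, 655 higher and 145 lower became 1280 and 480 with covariates, and 222 were lower by DESeq2. RLE scaling, no filter and, for genes higher, DESeq2 gave counts within 1.5 times the main ones.

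The 401 genes with a difference between young and old wild-type females became 627 by DESeq2, 645 with covariates, 74 with the 4 groups alone and 218 to 574 on leaving out each library. The 34 between females and males became 244, 3 and 0 under these settings, 1 with libraries joined and 0 to 532 on leaving out each library. The 1984 between wild-type and knock-in became 1319 with no filter, 1277 with libraries joined and 1132 with the 4 groups alone. They became 518 without knock-in IFN library 1, 581 without it and IFN 1, and 845 to 2420 on leaving out each of the 6.

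A replicate block gave 2055 higher and 2046 lower by the description numbers and 1742 and 1413 by the title numbers. Deviations of title pairs from their group means correlated at r = 0.26, 0.06 and 0.077, and those of the other pairs at -0.197 to 0.154. The title pairs missed the limit set beforehand for pairing, so the main fit had no block. So few pairs cannot show whether the numbers pair the samples.

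Among values called under either setting, directions turned only under the covariates. Alox15 (-0.35), Cd14 (-0.37), Cd3e (-0.45), Cdh17 (-1.09), Cxcl13 (-0.77), Cxcr5 (-0.54), Fpr1 (-0.68), H2-Ob (-0.37), Ighv1-52 (-0.39), Ighv1-55 (-2.62), Jak2 (-0.12), Krt222 (-0.08), Marco (-0.55), Pax5 (-0.10), Timd4 (-1.79), Vmn2r26 (-2.13) and Gch1 (-0.87) turned negative, and Ccl3 (0.12), Cxcr2 (0.26), Lamp1 (0.17) and Lgals3 (0.10) positive. Pax5, Cxcr5 and Cd3e are members of the covariates' own lists, and for the others the cause was not tested. The 3 libraries a group, of 73.6 to 97.9 M counts, limit what can be told of genes at 1 CPM or less.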

Other observations

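The counts for lists of cell state depended on the covariates. Of 22 unfolded protein and integrated stress response genes 5 rose and 1 fell, and 3 and 1 without IFN 1, but with the B and T cell list means as covariates 10 rose and 1 fell (median 0.46). Chac1, which degrades glutathione, had 0.794, 1.22 and 1.17 CPM in IFN 1, 2 and 5, against 0.121, 0.429 and 0.352 CPM in UT 1, 4 and 5 (1.82 ± 0.39, adjusted p = 6.94e-04, and 2.00 without IFN 1). Atf3, an early stress factor, fell, at 109, 324 and 288 CPM in IFN, against 444, 374 and 455 CPM in UT. The 64 nuclear respiratory chain genes had a median log2 change of -0.08 and the 20 sterol synthesis genes a median of -0.18. Of 13 mitochondrially encoded genes 2 fell, and none without IFN 1. Immediate early genes were called higher in 2 and lower in 2 of 16, and proliferation genes higher in 1 of 33. NRF2 targets were called higher in 1 and lower in 1 of 16, and glycolysis genes higher in 1 of 20. Over all genes tested 9.18% were called higher and 5.48% lower, against 2.98% and 0.66% without IFN 1. Over all genes with the covariates, the shares were 5.41% and 2.38%. With the covariates 18 of the 33 proliferation genes were higher (median 1.42). Under the same setting 5 of the 20 glycolysis genes were lower (median -0.44), and 2 sterol synthesis genes were higher. The cause of these moves was not tested. Gstm1, a glutathione transferase on the NRF2 list, had 83.2, 227 and 214 CPM in IFN, against 327, 394 and 394 CPM in UT, and fell with and without IFN 1 (-1.09 and -0.74), but was not called with the covariates (-0.35, adjusted p = 0.385).

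Antibody constant region genes rose in 10 of 12, and in 8 without IFN 1, while plasma cell genes rose in 3 of 8, and in 2 without IFN 1. With the covariates 0 of the 12 and 1 of the 8 were higher. Mzb1, a chaperone of antibody-making cells, had 18.5, 4.16 and 1.84 CPM in IFN, against 0.404, 0.0715 and 0.124 CPM in UT.

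Lepr, the leptin receptor, had 31.1 CPM in IFN 1, 0.0578 and 0.804 CPM in IFN 2 and 5, and 0.0303, 0.0511 and 0.0310 CPM in UT, and did not follow lymphocyte markers (r = 0.30 with the B cell list). Adgre4, Dmpk and Fpr1 had 81.7, 66.6 and 47.0 CPM in IFN 1 and at most 4.42, 7.82 and 3.49 CPM in the other IFN libraries. None of the 4 was called without IFN 1.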
